A study of Rattus norvegicus with 21 samples.

Results

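Acute phase plasma proteins are secreted by hepatocytes, and their blood levels shift during inflammation and injury. The 10 genes described here are A2m, Itih3, Itih4, Ahsg, Apcs, Crp, Hp, Hpx, Orm1 and Lcn2, taken by symbol from the annotation of an Affymetrix rat expression array. All 10 were found, each with exactly 1 probe set, among 14217 genes that had a probe set naming them alone and among 31042 probe sets tested. Values are log2 signals, so a difference of 1 is a doubling of signal, and signals of different probe sets were not set against each other.

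Liver RNA came from male Harlan Sprague Dawley rats that received tert-butylphenyl diphenyl phosphate (BPDP), a flame retardant and plasticiser of the organophosphate ester class, in corn oil. Gavage was given on 4 consecutive days. The 6 vehicle arrays are from rats given corn oil alone, and 3 arrays each are from rats given 64.6, 129.2, 258.1, 516.2 or 1032.5 mg/kg, which is 0.169 to 2.7 mmol/kg. The animals carried no engineered allele in the labels, and the labels give no age. The treatment protocol speaks of 5 vehicle rats where 6 vehicle arrays are listed. The labels call the arrays replicates without stating that each is a separate animal, so the p-values measure the spread between these arrays.

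In an acute phase response, interleukin-6, interleukin-1 and tumour necrosis factor, released largely by macrophages such as the Kupffer cells of the liver, act on hepatocytes together with glucocorticoids. The signal reaches the genes through STAT3, the C/EBP factors and NF-kB. Positive acute phase genes are then raised and negative ones, among them fetuin and albumin, are lowered. In the rat, A2m is a strong positive reactant that is low in the healthy adult, whereas Crp is made at a steady level and responds little.

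The tissue label was borne out by hepatocyte markers, whose 9 measured genes gave a summed signal (linear signals added, then log2) between 17.44 and 17.53 on every array. This sum was carried by its brightest genes, among them Alb (mean 15.34) and Ttr (14.82), near the top signal of the arrays. Its narrow range therefore does not measure how constant the share of hepatocytes was. Vehicle replicate 6 stood apart, with a mean correlation to its own group of 0.989 against 0.993 for each of the other 5 vehicle arrays. It also had the highest summed signal of the 7 measured neutrophil markers of 12 listed, 9.89, where the vehicle group began at 8.02 and no dosed array passed 8.16. That sum rested on S100a8 and S100a9, at 7.39 and 9.29 on this array, whose SDs over the vehicle arrays were 1.03 and 1.14. The vehicle SDs of the other measured markers, Camp, Np4, Mmp8, Csf3r and Cxcr2, were 0.12 to 0.23. RNA integrity, read as the 5′ minus 3′ signal of the Gapdh and beta-actin controls, was -1.95 ± 0.29 for the vehicle arrays (mean ± SD, n = 6). It was -2.30 ± 0.64 for 516.2 mg/kg (n = 3), and the 1032.5 mg/kg arrays had -1.54 ± 0.37 (n = 3). The lowest value, -3.10, belonged to an array at 258.1 mg/kg.

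At the highest dose, 5 of the 10 genes fell and none rose. A2m was 4.38-fold lower, and Apcs, Itih3, Itih4 and Ahsg fell by 1.14 to 1.30-fold. At 516.2 mg/kg Apcs alone fell. A gene is said to rise or fall where limma's p was under 0.05 after a Benjamini-Hochberg adjustment that took in every probe set. Among all probe sets, 2.85% fell and 3.30% rose at 1032.5 mg/kg, and 2.0% fell and 4.02% rose at 516.2 mg/kg. The latter split depended on the scaling, since 621 of the called probe sets were lower and 1247 higher as deposited, 421 and 1645 after subtraction of each array's median, and 712 and 992 after cyclic loess. With 1 array left out, the share of probe sets called in either direction ran from 2.03% (without 516.2 mg/kg replicate 1) to 8.05% at 516.2 mg/kg, where all arrays gave 6.02%, and from 3.66% (without 1032.5 mg/kg replicate 2) to 6.61% at 1032.5 mg/kg, where they gave 6.15%. In bulk tissue, fewer cells of a type and less RNA per cell cannot be told apart.

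At the other doses no member passed the threshold. The share of all probe sets called was 0.248% at 64.6 mg/kg and 0.348% at 129.2 mg/kg, and at 258.1 mg/kg 1.36% rose and 0.992% fell. The 258.1 mg/kg total of 2.35% became 0.786% without 258.1 mg/kg replicate 3 and 1.03% without replicate 1. At an unadjusted p under 0.05 the members numbered 0 at 64.6, 1 at 129.2, 4 at 258.1, 5 at 516.2 and 6 at 1032.5 mg/kg. All were lower except Orm1 at 1032.5 mg/kg. Of all probe sets, 8.15%, 7.25%, 12.6%, 21.0% and 17.9% passed that unadjusted threshold in the same order, and 3.52%, 3.45%, 5.78%, 9.82% and 9.08% passed it with a lower value.

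The 3 dosed arrays lay below all 6 vehicle arrays for 0 of 10 members at 64.6 mg/kg, 3 at 129.2 mg/kg, 5 at 258.1 mg/kg, 4 at 516.2 mg/kg and 5 at 1032.5 mg/kg. For all probe sets this share was 1.81%, 1.86%, 2.91%, 4.69% and 5.32% in the same order. No member had 3 dosed arrays above all vehicle arrays at any dose. The median log2 change of the 10 members was -0.01, -0.08, -0.18, -0.19 and -0.22 with rising dose, beside 0.01, -0.01, 0.00, -0.02 and -0.01 for all probe sets. All 5 dose comparisons share the same vehicle arrays.

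**Figure D1:**
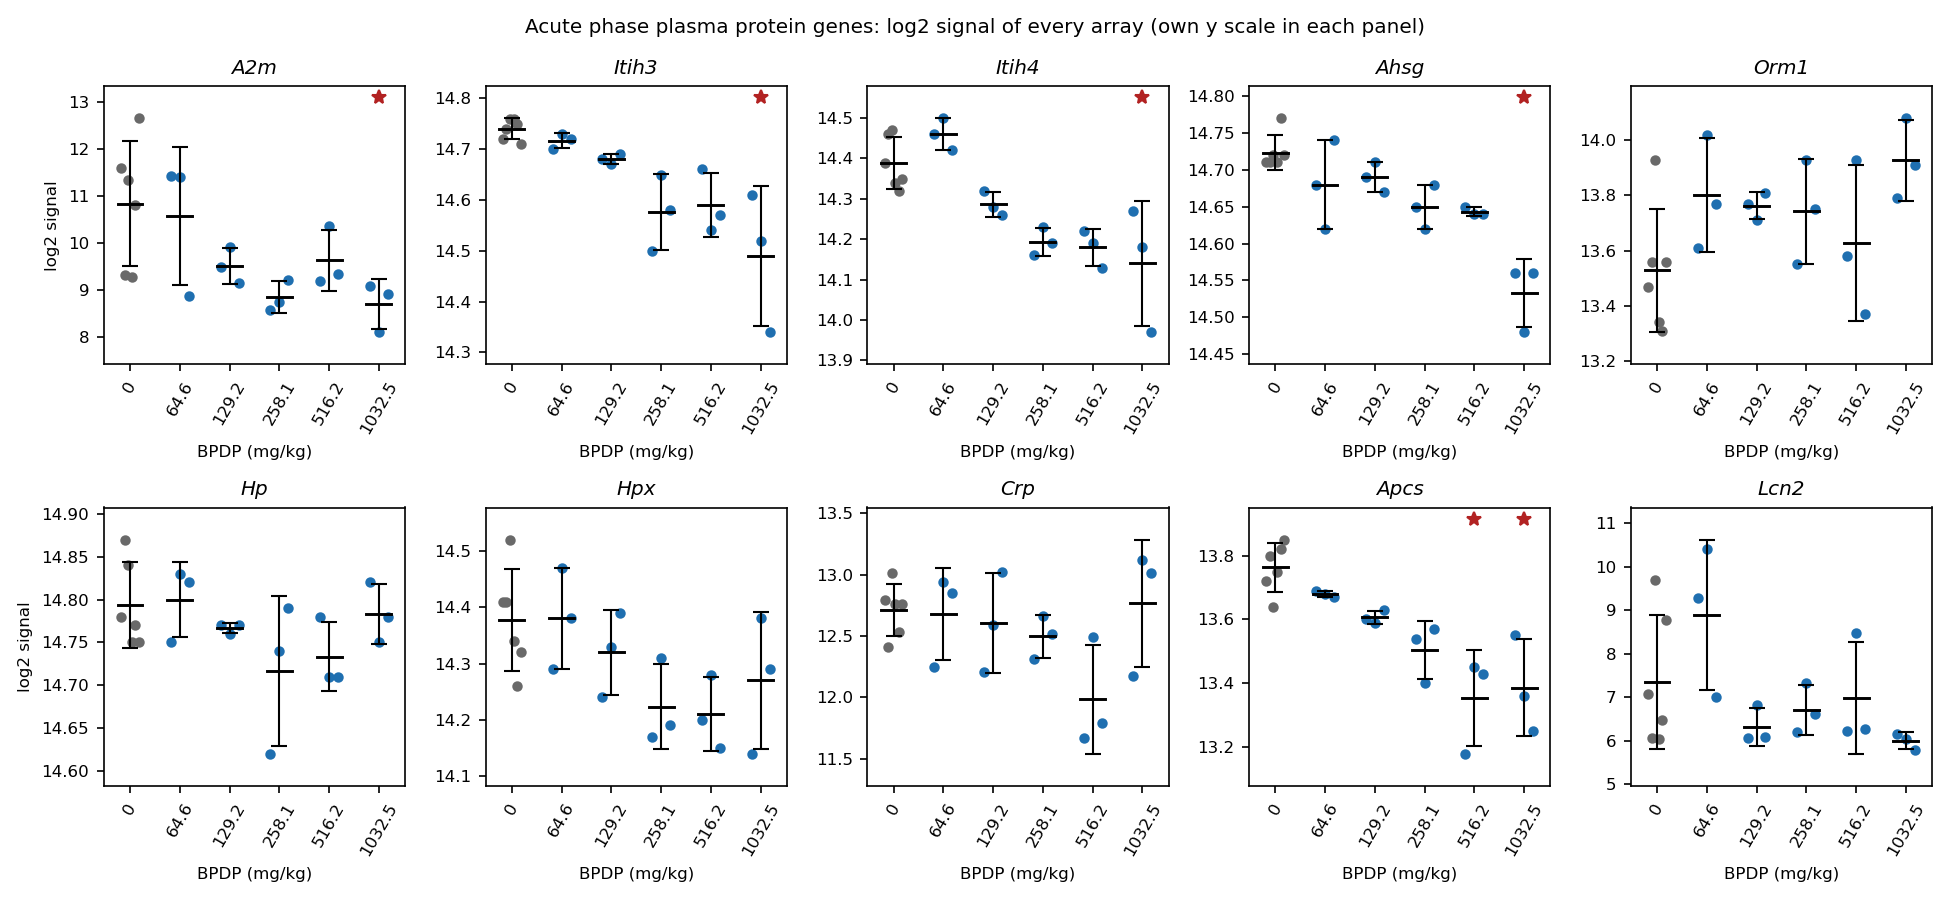
Log2 signal (y axis, own scale in each panel) of each of the 10 genes on every array, by BPDP dose in mg/kg (x axis, 0 is vehicle); points are arrays, the horizontal bar is the group mean, the whiskers are 1 SD, and a red star marks a limma adjusted p under 0.05. Stars stand over A2m, Itih3, Itih4 and Ahsg at 1032.5 mg/kg and over Apcs at 516.2 and 1032.5 mg/kg; the y axes span several log2 units for A2m and Lcn2 and under 1 unit for Itih3, Itih4, Ahsg, Hp and Hpx.

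A2m encodes alpha-2-macroglobulin, a plasma inhibitor that traps proteases of many classes (Entrez gene 24153). Its vehicle arrays ranged from 9.28 to 12.66 with a median of 11.07. In replicate order they read 11.59, 9.32, 11.34, 9.28, 10.80 and 12.66, so replicates 2 and 4 lay well below the others. The arrays at 64.6 mg/kg read 11.42, 11.41 and 8.87, and those at 129.2 mg/kg 9.48, 9.91 and 9.15. At these doses the dosed arrays lay within or below a vehicle range that was itself wide. At 258.1 mg/kg the values were 8.57, 8.74 and 9.22, at 516.2 mg/kg 9.18, 10.36 and 9.34, and at 1032.5 mg/kg 9.09, 8.10 and 8.92. All 3 arrays at 258.1 and at 1032.5 mg/kg were below every vehicle array. At 516.2 mg/kg only replicate 1 was, while replicates 2 and 3 were within the vehicle range.

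The log2 change of A2m at 1032.5 mg/kg was -2.13 (SE 0.62, 95% interval -3.42 to -0.84, limma adjusted p = 0.0441). At 258.1 mg/kg it was -1.99 (SE 0.62, adjusted p = 0.107), and the changes at 64.6, 129.2 and 516.2 mg/kg were -0.26, -1.32 and -1.20. Ordered by group mean from high to low the groups were vehicle (10.83 ± 1.33, SD, n = 6), 64.6 (10.57 ± 1.47, n = 3), 516.2 (9.63 ± 0.64), 129.2 (9.51 ± 0.38), 258.1 (8.84 ± 0.34) and 1032.5 mg/kg (8.70 ± 0.53). The ranges of each neighbouring pair in this order overlapped. Around its group means A2m varied with an SD of 1.0 log2 units, which exceeded that of 99.9% of probe sets.

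The A2m call at 1032.5 mg/kg sat at the threshold. It was lost in 14 of 21 fits that each left out 1 array, with adjusted p from 0.0504 to 0.201, and held only without vehicle replicate 2 or 4, any of the 64.6 mg/kg arrays, 258.1 mg/kg replicate 3 or 516.2 mg/kg replicate 2. Where the array left out belonged to another dose, the change stayed at -2.13 and the adjusted p was at most 0.0529, while leaving out a vehicle or 1032.5 mg/kg array moved the change between -2.44 and -1.76. Without vehicle replicate 6, the array with the highest A2m and the highest neutrophil marker sum, the change was -1.76 (adjusted p = 0.0654). The call was also lost after median subtraction (limma adjusted p = 0.0545), with a term for RNA integrity (0.0740) and with the replicate number as a block (0.0743). With the change again at -2.13, it was lost with trend and robust variance (0.0961) and with only the groups compared (0.0881).

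Itih3 and Itih4 encode heavy chains of the inter-alpha-trypsin inhibitor family, secreted proteins of which Itih3 is linked to the light chain bikunin and can be passed to hyaluronan, whereas Itih4 circulates without bikunin. In the RefSeq gene table of assembly GRCr8 no protein-coding gene lies between them, and none lies between Itih3 and their relative Itih1. Promoter windows of 300 bases, 250 before and 50 after the gene start, are printed below for the members that fell. RefSeq (GRCr8) had a window for 8 of the 10 members, and A2m and Hp had none. Each is written 5′ to 3′ along the gene, and capitals mark matches, on either strand, to TTCNNNGAA (a STAT motif), TTGCNNAA (a C/EBP motif), GTTAAT (part of the HNF1 motif) or a form of the NF-kB motif, none of which overlapped another here. The Itih3 window is chr16:6123325-6123624 (minus strand) and that of Itih4 is chr16:6086735-6087034 (plus strand).
Itih3: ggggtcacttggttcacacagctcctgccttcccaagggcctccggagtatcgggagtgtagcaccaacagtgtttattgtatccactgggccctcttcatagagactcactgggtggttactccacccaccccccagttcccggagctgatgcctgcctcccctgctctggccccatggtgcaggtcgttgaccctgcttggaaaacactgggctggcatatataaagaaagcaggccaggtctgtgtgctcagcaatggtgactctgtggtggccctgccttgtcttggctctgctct
Itih4: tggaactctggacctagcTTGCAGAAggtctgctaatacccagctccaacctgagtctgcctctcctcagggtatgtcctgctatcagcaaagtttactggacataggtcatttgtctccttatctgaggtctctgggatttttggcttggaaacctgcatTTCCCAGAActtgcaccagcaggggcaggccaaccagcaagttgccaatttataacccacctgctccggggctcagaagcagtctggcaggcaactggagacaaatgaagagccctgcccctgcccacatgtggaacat
The Itih4 window holds a STAT match at positions -89 to -81 from the start and a C/EBP match at -232 to -225. The Itih3 window holds no match. Members that did not fall also held C/EBP matches in windows not printed here: Orm1 (-123 to -116), Hpx (-200 to -193) and Lcn2 (-191 to -184). The Crp window held no match. Among 33469 promoter windows of the same length, 8.87% held the STAT letters, 10.6% the C/EBP letters, 7.45% the HNF1 letters and 1.53% the NF-kB letters. A match describes letters in a window and says nothing of binding.

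Itih3 (Entrez gene 50693) lay between 14.71 and 14.76 on the vehicle arrays, with a median of 14.74. The arrays at 64.6 mg/kg read 14.70, 14.73 and 14.72, and those at 129.2 mg/kg 14.68, 14.67 and 14.69. At 258.1 mg/kg they read 14.50, 14.65 and 14.58, at 516.2 mg/kg 14.66, 14.54 and 14.57, and at 1032.5 mg/kg 14.61, 14.52 and 14.34. From 129.2 mg/kg upward every dosed array was below every vehicle array. The fall at 1032.5 mg/kg was 1.19-fold (log2 change -0.25, SE 0.06, limma adjusted p = 0.0206), and at 258.1 and 516.2 mg/kg the changes were -0.17 and -0.15 (adjusted p = 0.231 and 0.182). The call was lost without 1032.5 mg/kg replicate 2 (adjusted p = 0.0565) or replicate 3 (0.170) and after subtraction of each array's median (0.0507). It was also lost with the replicate number as a block (0.122) and with only the groups compared (0.0832).

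Itih4 (Entrez gene 54404) ranged from 14.32 to 14.47 on the vehicle arrays with a median of 14.37. At 64.6 mg/kg it read 14.46, 14.50 and 14.42, at or above most vehicle arrays. At 129.2 mg/kg it read 14.32, 14.28 and 14.26, at 258.1 mg/kg 14.16, 14.23 and 14.19, at 516.2 mg/kg 14.22, 14.19 and 14.13, and at 1032.5 mg/kg 14.27, 14.18 and 13.97. At each of the upper 4 doses the dosed arrays did not overlap the vehicle arrays. The fall at 1032.5 mg/kg was 1.19-fold (log2 change -0.24, SE 0.07, limma adjusted p = 0.0329), and the change at 516.2 mg/kg was -0.21 (SE 0.07, adjusted p = 0.0750). Leaving out vehicle replicate 1, 2 or 3, or 1032.5 mg/kg replicate 2 or 3, ended the call (adjusted p from 0.0538 to 0.242). So did cyclic loess (0.0525), median subtraction (0.0739), a term for RNA integrity (0.0575), the replicate number as a block (0.0535) and a fit of only the groups compared (0.125).

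Relatives of these genes were described from a list of 16, of which 9 were measured. At 1032.5 mg/kg 2 of the 9 fell, Itih1 and Fetub, and none rose, where 2.85% of all probe sets fell. Fetub was lost without any 1 of the 1032.5 mg/kg arrays or without vehicle replicate 1, 3, 4, 5 or 6 (adjusted p from 0.0503 to 0.164), which left Itih1 alone, and the Itih1 call at 1032.5 mg/kg held in all 21 such fits. Itih1, the gene next to Itih3, went from a vehicle mean of 14.05 ± 0.07 (SD, n = 6) to 13.52 (n = 3), a log2 change of -0.53 (SE 0.09, limma adjusted p = 0.000549), and it also fell at 258.1 mg/kg (-0.34, adjusted p = 0.0390) and at 516.2 mg/kg (-0.37, adjusted p = 0.0154). The 258.1 mg/kg call was lost without vehicle replicate 1, 2, 3 or 4 or 258.1 mg/kg replicate 1 or 3 (adjusted p from 0.0566 to 0.232), and the 516.2 mg/kg call without 516.2 mg/kg replicate 2 or 3 (0.0567 to 0.0725). Itih2 changed by -0.21 (adjusted p = 0.0857) and Ambp, which encodes bikunin together with alpha-1-microglobulin, by -0.12 (adjusted p = 0.234). Of the macroglobulin relatives of A2m, Pzp changed by -0.13 (adjusted p = 0.313) and Mug1 by 0.14 (adjusted p = 0.876). Mug1 sequences are close to those of neighbouring copies, so its value is uncertain. The median log2 change of the 9 relatives was -0.21, beside -0.01 for all genes.

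Ahsg encodes fetuin-A, a liver-made plasma protein that keeps calcium phosphate in solution and is a negative acute phase protein in several species. Its promoter window is chr11:91632534-91632833 (minus strand) and holds a pair of C/EBP matches, at -165 to -158 and at -60 to -53.
Ahsg: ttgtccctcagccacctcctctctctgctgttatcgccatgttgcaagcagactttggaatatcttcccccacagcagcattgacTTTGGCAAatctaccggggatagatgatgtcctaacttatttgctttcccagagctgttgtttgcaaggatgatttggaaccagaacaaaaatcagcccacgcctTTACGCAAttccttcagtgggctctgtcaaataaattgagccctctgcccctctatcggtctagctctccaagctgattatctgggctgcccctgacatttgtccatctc
Ahsg (Entrez gene 25373) lay between 14.71 and 14.77 on the vehicle arrays with a median of 14.71. It read 14.68, 14.62 and 14.74 at 64.6 mg/kg, 14.69, 14.71 and 14.67 at 129.2 mg/kg, and 14.65, 14.62 and 14.68 at 258.1 mg/kg. It read 14.65, 14.64 and 14.64 at 516.2 mg/kg and 14.56, 14.48 and 14.56 at 1032.5 mg/kg. From 258.1 mg/kg upward no dosed array reached the vehicle range, and the largest gap was at the top dose.

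The fall of Ahsg at 1032.5 mg/kg was 1.14-fold (log2 change -0.19, SE 0.06, 95% interval -0.30 to -0.07, limma adjusted p = 0.0466). It sat close to the threshold: 19 of the 21 fits that left out 1 array lost it, with adjusted p from 0.0505 to 0.215, and it held only without 64.6 mg/kg replicate 3 or 129.2 mg/kg replicate 3. Median subtraction (adjusted p = 0.108), a term for RNA integrity (0.0640), the replicate number as a block (0.2115) and a fit of only the groups compared (0.134) also ended the call. Its neighbour Fetub, the other fetuin, fell by 0.24 on the log2 scale at 516.2 mg/kg (SE 0.06, adjusted p = 0.0204) and by 0.21 at 1032.5 mg/kg (SE 0.06, adjusted p = 0.0373). The 516.2 mg/kg call was lost without any 1 of the 516.2 mg/kg arrays (adjusted p from 0.0509 to 0.0732), and the 1032.5 mg/kg call as given above. No protein-coding gene lies between Ahsg and Fetub in the RefSeq table.

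Apcs and Crp encode the short pentraxins serum amyloid P component and C-reactive protein, ring-shaped proteins that bind phosphocholine, DNA and other debris and can activate complement. No protein-coding gene lies between them in the RefSeq table. The Apcs promoter window is chr13:87906459-87906758 (minus strand) and holds none of the letters searched.
Apcs: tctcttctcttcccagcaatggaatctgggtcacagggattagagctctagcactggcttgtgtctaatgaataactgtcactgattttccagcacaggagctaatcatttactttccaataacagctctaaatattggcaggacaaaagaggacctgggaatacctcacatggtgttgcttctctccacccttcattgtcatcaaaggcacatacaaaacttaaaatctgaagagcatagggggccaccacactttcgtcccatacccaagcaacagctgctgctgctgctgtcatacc
Apcs (Entrez gene 29339) ranged from 13.64 to 13.85 on the vehicle arrays with a median of 13.77. It read 13.69, 13.68 and 13.67 at 64.6 mg/kg, 13.60, 13.59 and 13.63 at 129.2 mg/kg, and 13.54, 13.40 and 13.57 at 258.1 mg/kg. At 516.2 mg/kg it read 13.18, 13.45 and 13.43, and at 1032.5 mg/kg 13.55, 13.36 and 13.25. From 129.2 mg/kg upward the dosed arrays were all below the vehicle arrays, and the means of the highest doses, 13.35 ± 0.15 and 13.39 ± 0.15 (SD, n = 3 each), differed by less than their spread.

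Apcs fell 1.33-fold at 516.2 mg/kg (log2 change -0.41, SE 0.08, limma adjusted p = 0.00346) and 1.30-fold at 1032.5 mg/kg (log2 change -0.38, SE 0.08, adjusted p = 0.00441). At 258.1 mg/kg the change was -0.26 (adjusted p = 0.0939) and at 129.2 mg/kg -0.16 (adjusted p = 0.718). Both calls held in all 21 fits that left out 1 array, with adjusted p at most 0.0491. With the replicate number as a block both were lost (limma adjusted p = 0.0503 at 516.2 mg/kg and 0.0739 at 1032.5 mg/kg).

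Crp (Entrez gene 25419) ranged from 12.41 to 13.01 on the vehicle arrays with a median of 12.76. The arrays read 12.25, 12.94 and 12.85 at 64.6 mg/kg, 12.21, 12.59 and 13.02 at 129.2 mg/kg, and 12.31, 12.66 and 12.52 at 258.1 mg/kg. They read 11.67, 12.49 and 11.79 at 516.2 mg/kg and 12.17, 13.12 and 13.01 at 1032.5 mg/kg. Arrays 1 and 3 at 516.2 mg/kg were below the vehicle range, and array 1 at 1032.5 mg/kg was below it while array 2 was above it. The change at 516.2 mg/kg was -0.73 (SE 0.22, 95% interval -1.19 to -0.27, limma adjusted p = 0.0551), just short of the threshold. Without 516.2 mg/kg replicate 2, the array of that dose within the vehicle range, the change was -0.98 (adjusted p = 0.0158). That is 1 of the 21 fits that left out 1 array, named after the values were seen. At 1032.5 mg/kg the change was 0.05 (95% interval -0.41 to 0.51, adjusted p = 0.946), and the difference between the top 2 doses, 0.78 (SE 0.25), had a limma adjusted p of 0.390.

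Hp encodes haptoglobin, which binds free haemoglobin, and Hpx encodes haemopexin, which binds free haem. Hp (Entrez gene 24464) lay between 14.75 and 14.87 on the vehicle arrays, with a median of 14.78, and between 14.62 and 14.83 on the 15 dosed arrays. At 258.1 mg/kg the arrays read 14.62, 14.74 and 14.79, and at 1032.5 mg/kg 14.82, 14.75 and 14.78. Values overlapped the vehicle range at every dose. Its changes ran from -0.08 at 258.1 mg/kg (adjusted p = 0.698) to 0.01 at 64.6 mg/kg, and at 1032.5 mg/kg the change was -0.01 with a 95% interval of -0.14 to 0.11. The sign of that last change turned under cyclic loess and under median subtraction.

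Hpx (Entrez gene 58917) ranged from 14.26 to 14.52 on the vehicle arrays with a median of 14.38. The arrays read 14.17, 14.31 and 14.19 at 258.1 mg/kg, 14.20, 14.28 and 14.15 at 516.2 mg/kg, and 14.14, 14.38 and 14.29 at 1032.5 mg/kg. At 258.1 and 516.2 mg/kg 2 of 3 arrays were below the vehicle range, and at 1032.5 mg/kg 1 of 3 was. The largest change was -0.17 at 516.2 mg/kg (95% interval -0.32 to -0.01, adjusted p = 0.201), and at 1032.5 mg/kg it was -0.11 (adjusted p = 0.517).

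The receptors and carriers that clear or handle these proteins were all measured, 7 of 7 listed. Hmox1, which degrades haem, rose at 1032.5 mg/kg by 1.01 on the log2 scale (SE 0.25, limma adjusted p = 0.0180). Cd163, the macrophage receptor for haptoglobin bound to haemoglobin, fell by 0.79 (SE 0.17, adjusted p = 0.00541). Slc22a17, a receptor for lipocalin-2, rose at 516.2 mg/kg by 0.39 (adjusted p = 0.0306) and changed by 0.08 at 1032.5 mg/kg (adjusted p = 0.789). The Hmox1 call was lost without 1032.5 mg/kg replicate 2 (change 0.63, adjusted p = 0.190), that of Cd163 without 1032.5 mg/kg replicate 3 (0.0529), and that of Slc22a17 without vehicle replicate 3 or 5 or 516.2 mg/kg replicate 1 or 3 (0.0526 to 0.235). Lrp1, the receptor that takes up protease-bound alpha-2-macroglobulin and haem-bound haemopexin, changed by -0.03 (adjusted p = 0.958).

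Orm1 encodes alpha-1-acid glycoprotein, a carrier of basic and neutral drugs in plasma. Its signal (Entrez gene 24614) ranged from 13.31 to 13.93 on the vehicle arrays with a median of 13.51. The arrays read 13.61, 14.02 and 13.77 at 64.6 mg/kg, 13.77, 13.71 and 13.81 at 129.2 mg/kg, and 13.55, 13.93 and 13.75 at 258.1 mg/kg. At 516.2 mg/kg they read 13.58, 13.93 and 13.37, and at 1032.5 mg/kg 13.79, 14.08 and 13.91. Its change was positive at every dose, and 1 vehicle array, replicate 3, was as high as or higher than most dosed arrays. The change at 1032.5 mg/kg was 0.40 (SE 0.13, 95% interval 0.12 to 0.68, limma adjusted p = 0.0907), and the other changes were 0.27, 0.23, 0.21 and 0.10 with rising dose. Without vehicle replicate 3 the change at 1032.5 mg/kg was 0.48 (adjusted p = 0.0245), and no other fit that left out 1 array called Orm1 at that dose.

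Lcn2 encodes lipocalin-2, a protein that binds iron-laden bacterial siderophores, is stored in neutrophil granules and is also made by hepatocytes in inflammation. Its signal (Entrez gene 170496) ranged from 6.04 to 9.70 on the vehicle arrays with a median of 6.77. At 64.6 mg/kg it read 9.29, 10.40 and 7.02, at 129.2 mg/kg 6.07, 6.83 and 6.08, at 258.1 mg/kg 6.21, 7.34 and 6.61, and at 516.2 mg/kg 6.23, 8.47 and 6.27. The arrays at 1032.5 mg/kg read 6.17, 6.05 and 5.79, a narrow range at the bottom of the vehicle values, with replicate 3 below them. These signals were dim, under the array medians of 6.30 to 6.39, and whether such signals are compressed was not tested. Around its group means Lcn2 varied with an SD of 1.22 log2 units, among the widest of all probe sets. Its changes were 1.55 at 64.6 mg/kg (SE 0.75, adjusted p = 0.618) and -1.35 at 1032.5 mg/kg (SE 0.75, 95% interval -2.91 to 0.21, adjusted p = 0.372). Between these doses the difference was -2.90 (SE 0.86, limma adjusted p = 0.111).

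**Figure D2:**
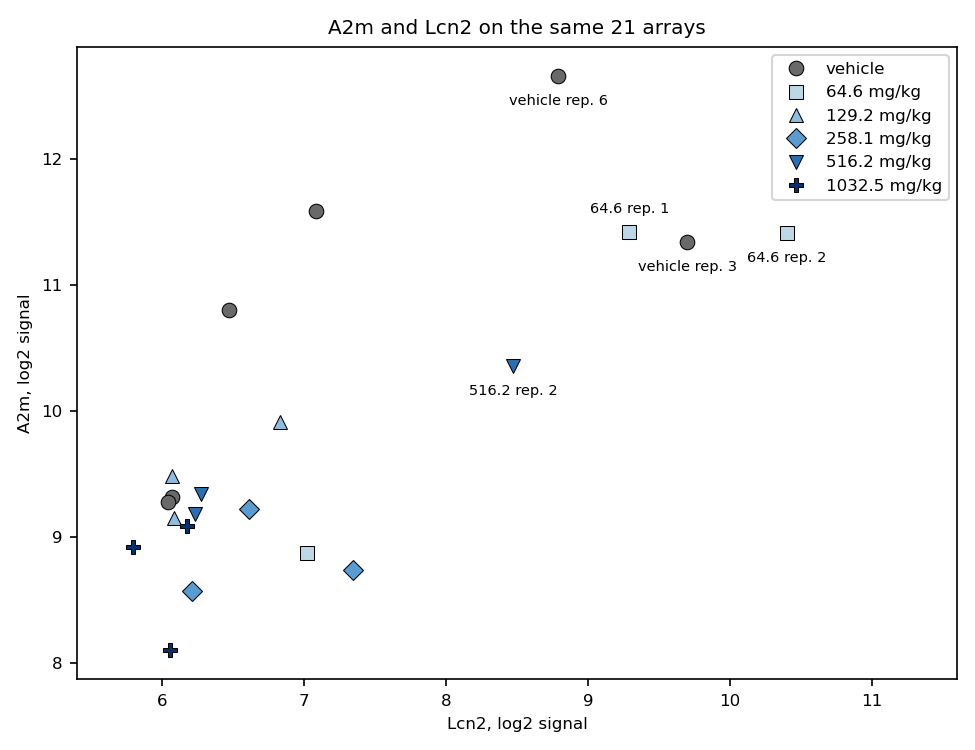
A2m log2 signal (y axis) against Lcn2 log2 signal (x axis) on each of the 21 arrays, with symbols and shades for the dose groups and names on the arrays with Lcn2 above 8. The 5 arrays with Lcn2 above 8 are spread over the vehicle, 64.6 and 516.2 mg/kg groups and all have A2m above 10, while the 3 arrays at 1032.5 mg/kg sit at low values of both.

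Arrays with a high Lcn2 signal were also high in A2m, but the reverse did not hold for every array. Vehicle replicates 1 and 5 had A2m at 11.59 and 10.80 with Lcn2 at 7.08 and 6.47. The 5 arrays above 8 for Lcn2 were vehicle replicates 3 and 6, 64.6 mg/kg replicates 1 and 2, and 516.2 mg/kg replicate 2, and their A2m signals were 11.34, 12.66, 11.42, 11.41 and 10.36. Vehicle replicate 6 had S100a9, a neutrophil granule gene, at 9.29, whereas the other 4 of these arrays read 6.98, 6.22, 6.77 and 6.27. Their neutrophil marker sums were 8.26, 7.96, 8.16 and 8.01, within the range of the remaining arrays. S100a8 was at 7.39 on vehicle replicate 6 and between 4.48 and 4.91 on the other 4. The part of neutrophil RNA in the A2m and Lcn2 values was not tested. The pairing of the 2 genes was noticed in these values and no test was made of it.

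A fit of a straight line over the 6 dose steps, vehicle included, gave a negative slope past the threshold for the same 5 members that fell at 1032.5 mg/kg. The slope was -0.42 log2 units per step for A2m (SE 0.11, limma adjusted p = 0.0108), -0.085 for Apcs (SE 0.013, adjusted p = 7.87e-05), -0.058 for Itih4 (SE 0.012, adjusted p = 0.00184), -0.048 for Itih3 (SE 0.010, adjusted p = 0.00276) and -0.030 for Ahsg (SE 0.009, adjusted p = 0.0294). Among all probe sets 4.61% had a called negative slope. The slope of Orm1 was 0.051 (adjusted p = 0.199) and that of Lcn2 -0.29 (adjusted p = 0.210). The Ahsg slope lost its call without vehicle replicate 5 (adjusted p = 0.0557), without any 1 of the 1032.5 mg/kg arrays (0.0563 to 0.0873) and after median subtraction (0.148).

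A line through the 15 dosed arrays alone, which does not use the vehicle, left 1 member past the threshold, beside 0.818% of all probe sets with a called negative slope. That member was Apcs (-0.083 per step, SE 0.021, adjusted p = 0.0469), and Itih4 stood just outside (-0.074, SE 0.019, adjusted p = 0.0503). A2m (-0.36, adjusted p = 0.172), Itih3 (-0.054, adjusted p = 0.139) and Lcn2 (-0.51, adjusted p = 0.169) did not pass. The Apcs call was lost without any 1 of the dosed arrays other than 516.2 mg/kg replicate 1 and 1032.5 mg/kg replicate 1.

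The moderated F over the 5 dose coefficients called Apcs (adjusted p = 0.00935) and Itih4 (adjusted p = 0.0371), against 4.62% of all probe sets, while A2m had an adjusted p of 0.142. Set against 64.6 mg/kg, the 1032.5 mg/kg arrays were lower in Itih4 (log2 change -0.32, SE 0.08, adjusted p = 0.0431), and no other member passed, where 0.619% of probe sets fell. Between 1032.5 and 516.2 mg/kg no member and 0.00% of probe sets passed. These comparisons between doses were chosen after the values had been seen.

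**Figure D3:**
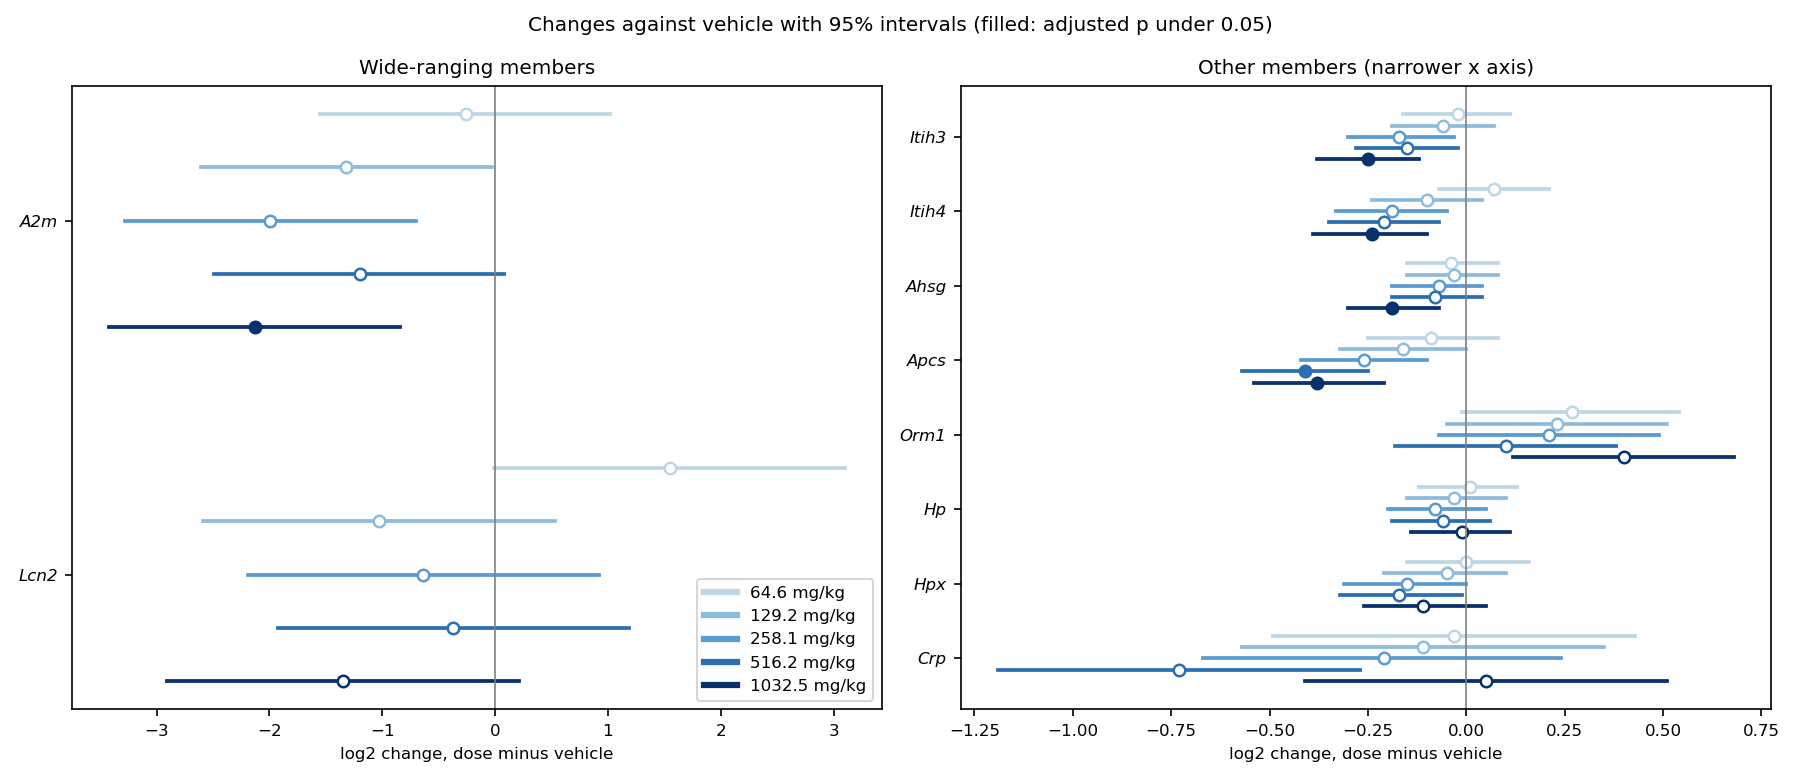
Log2 change from vehicle (x axis) of each of the 10 genes (y axis) at the 5 doses, darker for higher doses, with 95% intervals from limma as lines; filled points have an adjusted p under 0.05. Filled points stand for A2m, Itih3, Itih4 and Ahsg at 1032.5 mg/kg and Apcs at 516.2 and 1032.5 mg/kg, all to the left of 0, while Orm1 lies to the right of 0 at every dose.

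Other positive acute phase genes were described from a list of 28, of which 23 were measured. At 1032.5 mg/kg 3 of them rose and 1 fell, where 3.30% of all probe sets rose and 2.85% fell. The median change was -0.13, beside -0.01 for all genes. Mt2A, a metal-binding metallothionein, rose by 1.96 (SE 0.46, limma adjusted p = 0.0120), Hmox1 rose as given above, and Cd14, a co-receptor for bacterial lipopolysaccharide, rose by 0.66 (SE 0.15, adjusted p = 0.0113). Mbl2, a mannose-binding lectin of the complement system, fell by 0.76 (SE 0.10, adjusted p = 8.96e-05). Mt2A also rose at 258.1 and 516.2 mg/kg (1.94 and 1.73), and Mbl2 fell at 516.2 mg/kg (-0.43). The changes of Mt2A at 64.6 and 129.2 mg/kg, which were not called, were 1.52 and 1.8 (limma adjusted p = 0.2519 and 0.1321). Its SD over the vehicle arrays, which all dose comparisons share, was 1.27. The Mt2A call at 258.1 mg/kg was lost without vehicle replicate 1 or 5 or any 1 of the 258.1 mg/kg arrays (adjusted p from 0.0539 to 0.137), and that at 516.2 mg/kg without vehicle replicate 1 or 5 or any 1 of the 516.2 mg/kg arrays (0.0521 to 0.129). At 1032.5 mg/kg it was lost without replicate 1 or 2 of that dose (0.0570 to 0.0643). Cd14 lost its call without 1032.5 mg/kg replicate 3 (0.0534), and Mbl2 at 516.2 mg/kg without 516.2 mg/kg replicate 1 (0.0849). The Mbl2 call at 1032.5 mg/kg held in all 21 fits. The fibrinogen chains Fga, Fgb and Fgg changed by -0.17, -0.22 and -0.13 at 1032.5 mg/kg with adjusted p from 0.0694 to 0.273, and C3, the central complement component, changed by -0.02.

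Negative acute phase genes were described from a list of 12, of which 11 were measured. At 1032.5 mg/kg 4 fell and none rose, where 2.85% of all probe sets fell and 3.30% rose. The median change was -0.05, beside -0.01 for all genes. Serpina7, which encodes thyroxine-binding globulin, fell by 1.26 (SE 0.35, limma adjusted p = 0.0368), the growth factor Igf1 by 0.35 (SE 0.08, adjusted p = 0.0121) and coagulation factor F12 by 0.30 (SE 0.06, adjusted p = 0.00468). Fetub was the other. Alb, the albumin gene, changed by 0.00 at a mean of 15.34, and the brightest signal on any array was 15.35. The means of Itih3, Ahsg and Hp lie within 1 log2 unit of that brightest signal. So do those of C3 (14.84), Fgg (14.66), Fga (14.60) and Fgb (14.48). Whether signals there are compressed was not tested. Without vehicle replicate 6 the list gave 3 falls, since Fetub dropped out. Serpina7 lost its call without vehicle replicate 1, 2 or 4 or 1032.5 mg/kg replicate 2 or 3 (adjusted p from 0.0680 to 0.322), and Igf1 without 1032.5 mg/kg replicate 2 or 3 (0.0615 to 0.0714), while F12 held in all 21 fits.

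Of the cytokines, their receptors and signal carriers, 16 of 17 listed genes were measured. Il1b, the gene of interleukin-1 beta, fell at 258.1 mg/kg by 0.58 (SE 0.15, limma adjusted p = 0.0471) and at 1032.5 mg/kg by 0.73 (SE 0.15, adjusted p = 0.00498), and no other member of the list was called at any dose. The call at 1032.5 mg/kg held in all 21 fits that left out 1 array. That at 258.1 mg/kg was lost in 16 of them, each 258.1 mg/kg array among them, with adjusted p up to 0.221, and held only without vehicle replicate 2, 4 or 6 or 516.2 mg/kg replicate 1 or 2. Il6 was dim, at a mean of 3.91, and changed by 0.02 at 1032.5 mg/kg (adjusted p = 0.952). Stat3 changed by -1.12 at 258.1 mg/kg (adjusted p = 0.0810) and by -0.77 at 1032.5 mg/kg (adjusted p = 0.204), and Socs3, a feedback inhibitor that STAT3 induces, by 0.07 (adjusted p = 0.768).

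None of the 8 measured of 9 listed transcription factors of acute phase promoters passed the threshold in limma at any dose, with 3 at an unadjusted p under 0.05 at 1032.5 mg/kg, 1 of them higher, beside 17.9% of all probe sets. The brightest were Hnf4a, which changed by -0.09 at 1032.5 mg/kg (adjusted p = 0.786), and Cebpa, by 0.37 (adjusted p = 0.450). Among glucocorticoid-responsive genes, 7 of 8 measured, Per1 rose at 258.1 mg/kg by 0.58 (SE 0.13, adjusted p = 0.0159) and at 1032.5 mg/kg by 0.53 (SE 0.13, adjusted p = 0.0121), and no other member was called. At 64.6, 129.2 and 516.2 mg/kg Per1 changed by 0.51, 0.51 and 0.27 (limma adjusted p = 0.115, 0.116 and 0.230). Per1 lost its call at 258.1 mg/kg without 258.1 mg/kg replicate 3 (adjusted p = 0.172) and at 1032.5 mg/kg without 1032.5 mg/kg replicate 1 or 2 (0.0534 to 0.0827).

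**Figure D4:**
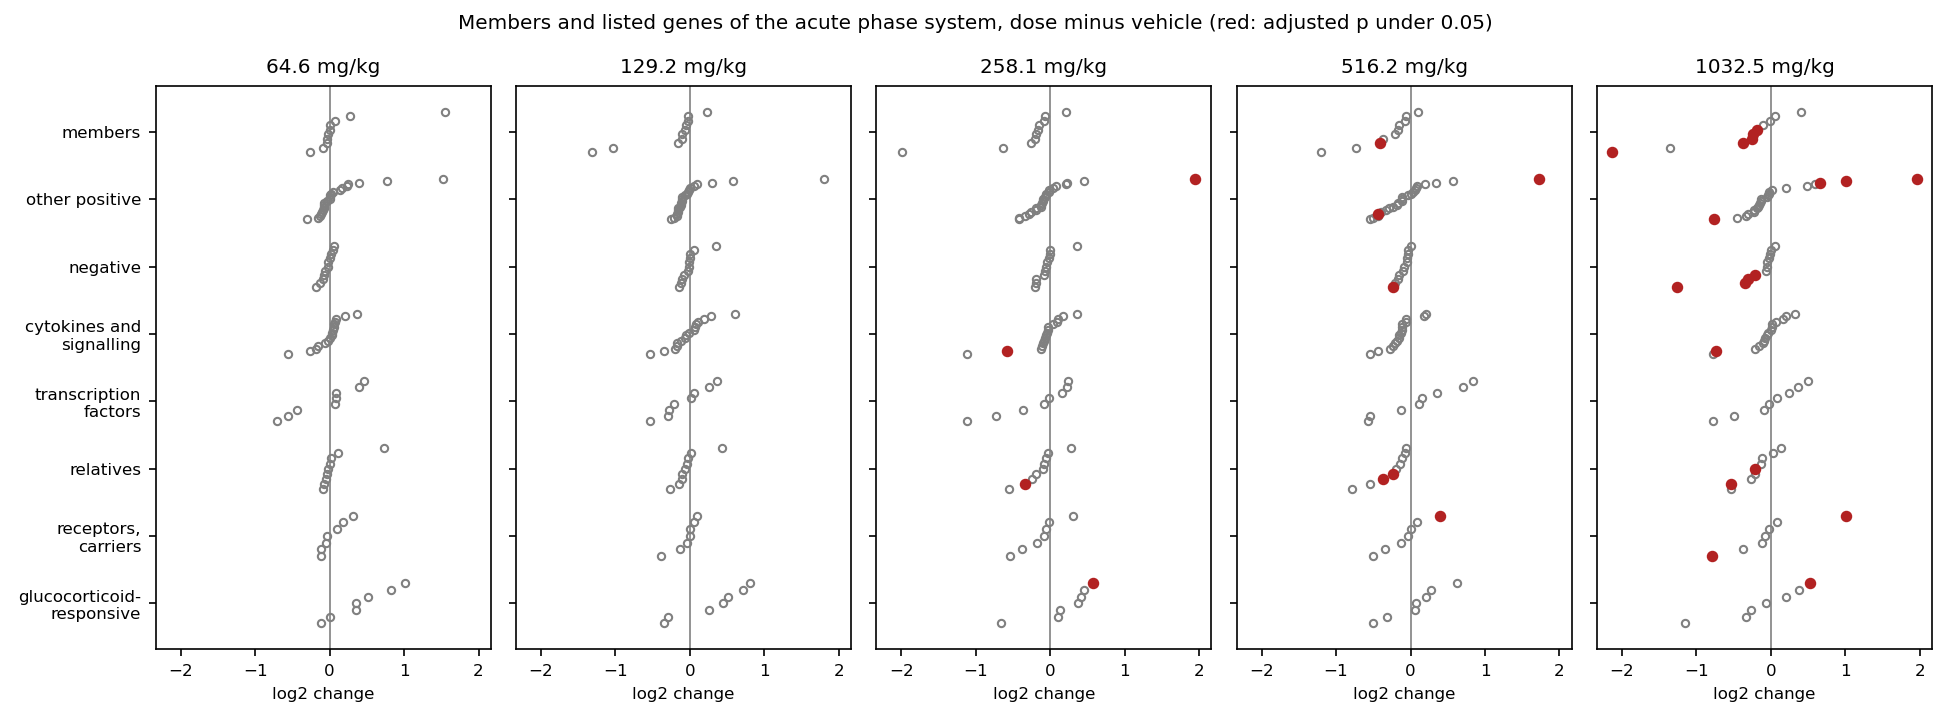
Log2 change from vehicle (x axis) of the members and of the measured genes of 7 related lists (y axis), 1 panel for each dose; each point is 1 gene, ordered by its change within its list, and red points have a limma adjusted p under 0.05; a gene on several lists is drawn in each. Red points appear from 258.1 mg/kg upward, and at 1032.5 mg/kg the called members and the called negative acute phase genes all lie to the left of 0.

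Markers of other liver cells also differed between groups. All 9 measured of 12 listed Kupffer cell and macrophage markers had a negative change at every dose, with a median of -0.60 at 1032.5 mg/kg, where Cd163 and Adgre1 fell. With 1 array left out, 0 to 4 of them were called there, and without 258.1 mg/kg replicate 1 they were Clec4f, Cd163, Adgre1 and Csf1r. Their summed signal ranged from 13.24 to 13.81 on the vehicle arrays and from 12.81 to 13.16 at 1032.5 mg/kg, without overlap. At 516.2 mg/kg 7 of 10 stellate cell and fibroblast markers fell and at 1032.5 mg/kg 4 did, with summed signals of 12.03 to 12.60 in the vehicle group, 11.40 to 11.96 at 516.2 mg/kg and 11.62 to 11.86 at 1032.5 mg/kg. With 1 array left out, 2 to 7 of them fell at 516.2 mg/kg, fewest without 516.2 mg/kg replicate 1, and 3 to 4 at 1032.5 mg/kg. Of 9 measured of 11 listed lymphocyte markers, Ms4a1 and Cd8a fell at 1032.5 mg/kg (-0.48 and -0.72), in all 21 fits that left out 1 array too, and the summed signal was 8.90 to 9.19 in the vehicle group and 8.73 to 8.75 at that dose. Ms4a1 also fell at 516.2 mg/kg (-0.38), a call lost without vehicle replicate 3 or 516.2 mg/kg replicate 1 or 3. Ms4a1 and Cd8a were dim, at means of 5.90 and 6.24 where array medians ran from 6.30 to 6.39. Of 7 measured of 8 listed endothelial markers, Kdr and Stab1 fell at 516.2 mg/kg (-0.66 and -0.47) and Stab1 at 1032.5 mg/kg (-0.56), with sums of 11.66 to 12.56 in the vehicle group and 11.85 to 12.08 at 1032.5 mg/kg. With 1 array left out, 0 to 2 endothelial markers fell at each of these doses, and Stab1 lost its call at 516.2 mg/kg in 17 of 21 such fits. Bile duct markers went the other way through 1 gene. Of 5 measured of 6 listed, Epcam rose at 258.1, 516.2 and 1032.5 mg/kg (0.54, 0.73 and 0.71), the calls at the top 2 doses holding in all 21 fits and that at 258.1 mg/kg being lost without vehicle replicate 2, 3 or 5 or 258.1 mg/kg replicate 1 or 2. Their sum was 9.45 to 10.02 in the vehicle group and 10.09 to 10.38 at 1032.5 mg/kg, while the median change of the 5 at that dose was -0.06. Neutrophil markers summed to 7.84 to 8.03 at 1032.5 mg/kg, and none of the 7 was called at that dose, although Mmp8 was called lower once vehicle replicate 6 was left out. Mmp8 fell at 516.2 mg/kg (-0.34), a call lost without vehicle replicate 1, 2 or 3 or 516.2 mg/kg replicate 2 or 3. Its mean signal was 4.67, below the lower quartile of every array (4.95 to 5.10). Whether the makeup of the tissue has a part in the members' changes was not tested.

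The genes whose pattern was most like that of a member were found by Pearson r over the 21 arrays among 14216 other genes, as a description. For Itih3 they were Itih1 (r = 0.943), Serpina4 (0.933) and Apoc3 (0.917), and for Itih4 Mgat4b (0.915), Slc27a5 (0.885) and Ceacam1 (0.881). For Ahsg they were Avpr1a (0.921), Trim2 (0.906) and Slc17a4 (0.894), and for Apcs Serpind1 (0.885), Synrg (0.883) and St6gal1 (0.883). A2m had lower values, with Tuba4a (0.816), Akt2 (0.806) and Slc41a2 (0.803). The arrays share the dose groups and the scaling, which enter every such r.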

How the data were processed

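Liver RNA was hybridised to 21 Affymetrix rat arrays. The authors deposited log2 signals made with RMA, as the submitters' processing notes state. Which program and settings ran it is not given in the sources used here. No scaling or filter was added to them. After 57 array controls were set aside, 31042 probe sets were tested, of which 20826 name 1 gene, 436 several and 9780 none. A gene on a list was represented by its probe set with the highest mean.

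limma 3.58.1 in R 4.3.3 fitted all 21 arrays with a coefficient per dose group and no covariate. Two-sided p-values were adjusted within a comparison by the Benjamini-Hochberg method across every probe set, with a threshold of 0.05. The fit was tested on simulated data. Slopes used the dose step. The members, the gene lists and the tests were chosen with earlier results of these data known. Genes were named by rule: all members, up to 4 called genes of each list by size of change at 1032.5 mg/kg or else the 2 brightest, and the 3 most alike to each called member. Other genes named (fibrinogens, C3, Alb, Il6, Stat3, Socs3, Itih2, Ambp, Pzp, Mug1, Lrp1, Slc22a17, Adgre1, Clec4f, Csf1r, Ms4a1, Cd8a, Kdr, Stab1, Epcam, Mmp8, S100a8 and S100a9) were chosen after their values were seen. The arrays carry no read depth, and their number limits precision. Alternatives were other scalings, filters, variance models and covariates, the replicate number as a block, a fit of only the groups compared, and each array left out in turn. Leaving out arrays for the gene lists, and the shares at an unadjusted p, were added after the data were seen.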

Additional observations from a re-analysis of the deposited data

Results flagged for a closer look

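Among the vehicle arrays of the 10 genes, Ahsg alone had a value set apart from the rest. Vehicle replicate 5 read 14.77, where the other 5 vehicle arrays lay between 14.71 and 14.72, and the gap took up 0.811 of the group's range, above Dixon's 95% critical value for 6 arrays. Chance flags about 1 in 20 such groups, and 10 were examined. The gap is small on the log2 scale. Without this array the Ahsg slope over the dose steps had an adjusted p of 0.0557.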

How the results depend on the processing

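No called change of a member turned its direction in any of the 29 alternatives. The 2 Apcs calls held in 28 of them, Itih3 in 24, Itih4 in 19, A2m in 10 and Ahsg in 6. At 1032.5 mg/kg the 5 called members became 1 after subtraction of each array's median, 2 with a term for RNA integrity and 1 when only the groups compared were fitted. Of all probe sets, 5.59%, 5.89% and 5.18% were called in these fits in either direction, beside 6.15% as reported. With 1 array left out the count ran from 1 to 5 and the share from 3.66% to 6.61%. The count was 3 without vehicle replicate 6, and without vehicle replicate 3 it included Orm1, which was higher. At 516.2 mg/kg the 1 called member became 2 (Crp or Itih4 added) without dim probe sets, with 1 probe set per gene, with trend and robust variance and with only the groups compared, and 1 to 2 with 1 array left out. In the order given, 8.35%, 11.4%, 5.66% and 4.36% of the probe sets tested were called, beside 6.02% as reported. With 1 array left out that share ran from 2.03% to 8.05%. At 258.1 mg/kg 0 became 1 (Apcs) under cyclic loess and ran from 0 to 1 with 1 array left out (A2m, without vehicle replicate 4). Of all probe sets 2.6% were called under cyclic loess and 2.06% without vehicle replicate 4, beside 2.35% as reported. With 1 array left out the share ran from 0.786% to 3.38%. For the slope among dosed arrays, 1 became 0 after median subtraction and on a log2 dose axis, 2 without dim probe sets, with 1 probe set per gene and with trend and robust variance, and 0 to 2 with 1 array left out. In the order given, called slopes made up 2.2%, 2.09%, 3.24%, 4.46% and 2.14% of the probe sets tested, beside 2.28% as reported. With 1 array left out they made up 1.19% to 2.45%. For the slope over all dose steps the count ran from 4 to 5 with 1 array left out, and without 1032.5 mg/kg replicate 2 the 5 held Hpx in place of Ahsg. With 1 array left out, called slopes made up 8.5% to 11.5% of all probe sets, beside 10.5% as reported. With the replicate number as a block, the counts were 0 at 516.2 mg/kg, 0 at 1032.5 mg/kg and 0 for the slope among dosed arrays. In that order, 4.34%, 4.78% and 2.31% of all probe sets were called. Deviations from the group means had a mean r of 0.03 over 45 pairs of arrays that share a number (-0.28 to 0.394). Over 135 other pairs the mean r was -0.01 (-0.441 to 0.302). Whether the numbers pair the arrays was not tested. The causes of the differences between settings were not tested. The signals of several members lie near the brightest on the array, and how far changes there are compressed is unknown.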
